A study of Saccharomyces cerevisiae with 8 samples.

Results

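The 3' domains of yeast 18S ribosomal RNA, taken as nucleotides 1141 to 1800 of the mature molecule, form the head of the small ribosomal subunit and its 3' end, and hold 5 annotated sites of ribose methylation. The members were chosen by position alone, as the 660 nucleotides in this interval of the 5196 nucleotides of 18S and 25S rRNA. The annotated sites are Um1269, Gm1271, Gm1428, Gm1572 and Cm1639, which are 5 of 55 in both rRNAs, and the other 655 nucleotides served as the background. Of the remaining annotated sites, 13 lie in the rest of 18S and 37 in 25S.

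The study asked how RNA helicases act on small nucleolar RNA complexes during ribosome assembly and on the methylation that these complexes guide. RiboMeth-seq was run on RNA from 4 groups of budding yeast (Saccharomyces cerevisiae) in log phase, with 2 libraries in each group, replicates A and B. The first, Delta_Dbp3, is labelled as lacking Dbp3, a DEAD-box helicase, and was set against WT. The other groups are a strain in which a GAL promoter drives PRP43, whose product is a DEAH-box helicase. It is labelled Glu (PRP43_Glu) or, as the state it was set against, Gal (PRP43_Gal). The media named for the study hold glucose or galactose, or are synthetic and lack leucine, so in the PRP43 strain the sugar and the state of the promoter cannot be told apart. The sources used here give neither the medium of each library nor the time in glucose. The series is described as biological duplicates.

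A 2'-O-methyl group on the ribose blocks alkaline cleavage of the RNA chain at that nucleotide, so few fragments begin or end there. In yeast rRNA the methyl group is placed by fibrillarin (Nop1) in a box C/D small nucleolar RNA (snoRNA) complex, which finds its target by base pairing between the guide and the pre-rRNA. Helicases are known to remodel such pairings. The guides, given here from general knowledge of yeast snoRNAs, are snR55 for Um1269, snR40 for Gm1271, snR56 for Gm1428, snR57 for Gm1572 and snR70 for Cm1639. Cm1639 lies in the decoding centre, where the ribosome reads codon and anticodon. Gm1572 lies near G1575, a base known to carry a methyl group placed by Bud23.

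The 5 sites fall in 4 windows, because Um1269 and Gm1271 are separated by a single unmodified guanosine. The windows below were read from the nucleotide letters of the deposited tables, 5′ to 3′, with 10 nucleotides on each side and the methylated nucleotides in capitals. They include the 6 neighbours on each side that each score is computed from, and letters beyond them that play no part in it.
Um1269 and Gm1271 (18S 1259 to 1281): uuguggguggUgGugcauggccg
Gm1428 (18S 1418 to 1438): ggcaauaacaGgucugugaug
Gm1572 (18S 1562 to 1582): gcucuucaacGaggaauuccu
Cm1639 (18S 1629 to 1649): guacacaccgCccgucgcuag

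The measure is the RiboMeth-seq score, deposited by the authors. It equals 1 minus the read ends at a nucleotide divided by the read ends expected from 6 neighbours on each side, with negative values set to 0. A score near 1 means that almost no fragments ended at the nucleotide, and a score of 0 means that the number was at or above the expected one. The read ends at a nucleotide are the sum of 5' ends and 3' ends of mapped fragments. Read ends on 18S and 25S ranged from 5557319 to 14191112 per library, and those in the 3' domains from 701402 to 1846358. The median nucleotide of the 3' domains held between 952 and 2553 read ends. Over the 5 sites and 8 libraries, the read ends at a site had a median of 55 and ranged from 2 to 1575, with 253 to 5001 expected. The counting intervals quoted below are exact 95% Poisson intervals on the read ends at the site, with the expected value held fixed, and cover counting error only.

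In Delta_Dbp3, Um1269 fell, and it was the only site of the 3' domains that passed in the limma fit of the score. The score of Um1269 was 0.633 and 0.520 in Delta_Dbp3 replicates A and B, against 0.965 and 0.983 in WT. Both Delta_Dbp3 libraries were far below both WT libraries, and the gap between groups exceeded the spread within either. The read ends behind these scores were 321 and 744 in Delta_Dbp3, which were 36.7% and 48.0% of the number expected. In WT they were 54 and 26, or 3.53% and 1.71% of the number expected. The counting intervals of the score were 0.591 to 0.672 and 0.484 to 0.554 in Delta_Dbp3, against 0.954 to 0.974 and 0.975 to 0.989 in WT. The group means were 0.577 ± 0.0800 in Delta_Dbp3 and 0.974 ± 0.0128 in WT (SD, n = 2 each), and limma gave a difference of -0.397 (SE 0.0369, 95% interval -0.490 to -0.304, adjusted p = 0.00114). Over all 55 sites 27.3% were called lower and 0% higher in this comparison, so 1 site of 5 is near the background. In the rest of 18S 0 of 13 sites were called, and in 25S 14 of 37.

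Gm1271, guided by snR40 and 2 nucleotides downstream of Um1269, shares most of its neighbours with it. Its score was 0.937 and 0.956 in Delta_Dbp3, against 0.972 and 0.988 in WT. The Delta_Dbp3 values were lower without overlap, but the difference of -0.0333 (95% interval -0.0759 to 0.0093) did not pass limma's threshold (adjusted p = 0.215). It passed on log2 odds (-1.56, adjusted p = 0.0487) and missed the threshold narrowly when edgeR tested the read ends (adjusted p = 0.0505). Between both sites, the guanosine at 1270 had 1.10 and 1.09 times its expected read ends in Delta_Dbp3, against 0.929 and 0.825 times in WT. By the sum of ends, the protected nucleotides thus stood below the unprotected one between them in every library of these groups. In Delta_Dbp3 the dip at Um1269 alone was shallow. Beyond Gm1271, nucleotide 1272 held 0.476 and 0.835 times its expected read ends in Delta_Dbp3, and nucleotide 1273 held 0.853 and 0.508 times. Um1269 held 0.367 and 0.480 times, not far below the lowest of these. From 3' ends alone, Um1269 held 0.568 and 0.880 times, against 1.72 and 0.869 times at 1270.

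Taken within each library, the score of Um1269 minus that of Gm1271 was -0.304 and -0.436 in Delta_Dbp3, against -0.0073 and -0.0049 in WT. The difference between groups was -0.364, with an exact two-sided permutation p of 0.333, which is the smallest that 2 against 2 libraries allow. From 5' ends alone this difference was -0.152, and from 3' ends alone -0.656. In the PRP43 strain the same quantity was -0.0066 and 0.0166 in PRP43_Glu, against -0.0074 and -0.0154 in PRP43_Gal, so both sites of the pair were at the same level there to within 0.0166 of score.

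**Figure D1:**
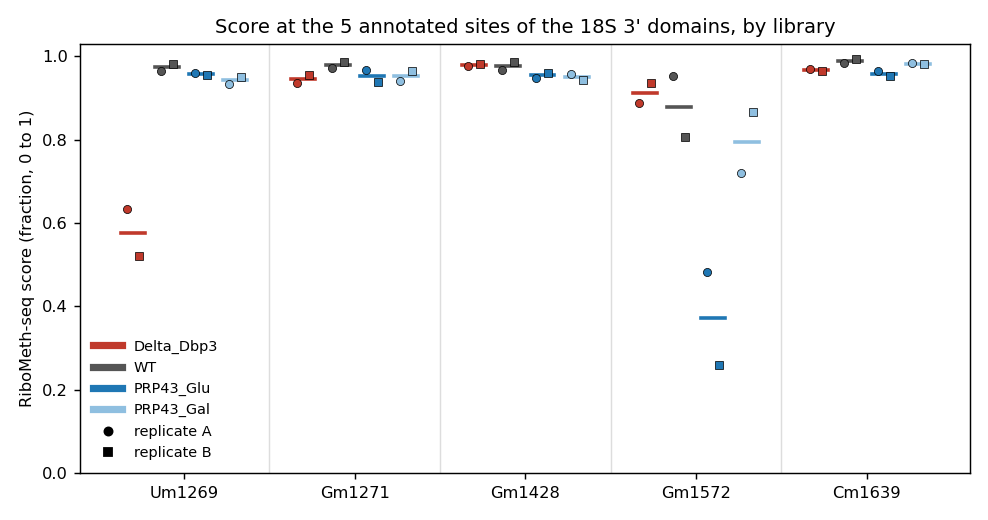
RiboMeth-seq score (fraction, vertical axis) at the 5 annotated sites, with 1 point per library (circle for replicate A, square for replicate B) and a bar at each group mean. Um1269 lay at 0.633 and 0.520 in Delta_Dbp3 and above 0.93 elsewhere, and Gm1572 lay at 0.482 and 0.260 in PRP43_Glu.

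The guide snR40 has another target, Um898 of 25S rRNA, whose score averaged 0.597 ± 0.0788 in Delta_Dbp3 and 0.861 ± 0.0173 in WT (SD, n = 2 each), a difference of -0.264 that passed limma's threshold (adjusted p = 0.00719). The values of both groups are free of the authors' barcode correction, but the pooled spread is not, and without the correction the same difference did not pass (adjusted p = 0.232). The 2 targets of this guide were thus measured at -0.0333 in 18S and at -0.264 in 25S, and the difference between them was not tested.

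The remaining sites had 95% intervals that included 0 for Delta_Dbp3 minus WT. Gm1428 scored 0.977 and 0.982 in Delta_Dbp3, against 0.968 and 0.986 in WT, and the groups overlapped (difference 0.0021, interval -0.0300 to 0.0341). Gm1572 scored 0.889 and 0.937 in Delta_Dbp3, against 0.953 and 0.806 in WT. These groups overlapped as well, and the 95% interval of -0.207 to 0.272 is wide. Cm1639 scored 0.971 and 0.965 in Delta_Dbp3, against 0.984 and 0.994 in WT, on only 12 and 13 read ends in Delta_Dbp3 and 4 and 2 in WT. Its difference of -0.0209 did not pass in limma (adjusted p = 0.218) but did with log2 odds (adjusted p = 0.0321), with trend and robust moderation (adjusted p = 0.0287) and with edgeR on read ends (adjusted p = 0.0240). In all, 3 of the 5 sites were lower in Delta_Dbp3 without overlap of the groups, where 69.1% of the 55 sites were. The median difference was -0.0209 over these 5 sites and -0.0327 over all 55.

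In the PRP43 strain, the libraries labelled Glu showed a fall at Gm1572, the target of snR57, relative to those labelled Gal. Its score was 0.482 and 0.260 in PRP43_Glu replicates A and B, against 0.721 and 0.867 in PRP43_Gal. The groups did not overlap, PRP43_Glu being the lower, although replicates of each group differed widely. The read ends were 686 and 1575 in PRP43_Glu, or 51.8% and 74.0% of the number expected, against 1394 and 547 in PRP43_Gal, or 27.9% and 13.3%. The counting intervals of the score were 0.442 to 0.520 and 0.222 to 0.296 in PRP43_Glu, against 0.706 to 0.736 and 0.855 to 0.878 in PRP43_Gal, so replicates differed by more than counting error. The means were 0.371 ± 0.157 in PRP43_Glu and 0.794 ± 0.103 in PRP43_Gal (SD, n = 2 each). The limma difference was -0.423 (SE 0.0949, 95% interval -0.663 to -0.184, adjusted p = 0.0117). This call was lost when edgeR tested the read ends of the 55 sites (adjusted p = 0.0626) and without PRP43_Gal replicate B, where the difference was -0.350 (adjusted p = 0.0541).

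Over all 55 sites 56.4% were called lower and 0% higher in PRP43_Glu, so 1 of 5 in the 3' domains is below the background. In the rest of 18S 7 of 13 sites were called, and in 25S 23 of 37. The median difference was -0.0004 over these 5 sites, against -0.135 over all 55. Groups did not overlap at 2 of the 5 sites with PRP43_Glu below, where 70.9% of the 55 sites were below without overlap. With PRP43_Glu above they did not overlap at 1 of the 5, Um1269, which was the only 1 of the 55.

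At the other sites of the 3' domains the score stayed above 0.93 in every PRP43 library. Um1269 scored 0.961 and 0.956 in PRP43_Glu, against 0.934 and 0.951 in PRP43_Gal, a difference of 0.0160 that did not pass (95% interval -0.0771 to 0.109). Gm1271 scored 0.968 and 0.939 in PRP43_Glu, against 0.941 and 0.966 in PRP43_Gal, and the groups overlapped (95% interval of the difference -0.0430 to 0.0422). Gm1428 scored 0.949 and 0.960 in PRP43_Glu, against 0.959 and 0.943 in PRP43_Gal, and the groups overlapped (95% interval -0.0287 to 0.0354). The other target of snR40, Um898, has no settled direction in this comparison. With the authors' barcode correction, which took PRP43_Gal replicate B from 5' ends alone (0.834 in place of 0.383), it averaged 0.645 ± 0.0099 in PRP43_Glu and 0.814 ± 0.0277 in PRP43_Gal (SD, n = 2 each), with a limma difference of -0.169 (adjusted p = 0.0121). From both ends in every library it averaged 0.645 ± 0.0099 in PRP43_Glu and 0.589 ± 0.291 in PRP43_Gal, and the difference was 0.0562 (adjusted p = 0.808). From 5' ends alone in every library the difference was -0.120 (adjusted p = 0.0412).

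Cm1639 scored 0.965 and 0.953 in PRP43_Glu, against 0.984 and 0.981 in PRP43_Gal, on 19 and 40 read ends in PRP43_Glu and 18 and 35 in PRP43_Gal. The groups did not overlap, and the difference of -0.0233 did not pass in limma (adjusted p = 0.131). It passed with log2 odds (adjusted p = 0.0337), with trend and robust moderation (adjusted p = 0.00858) and with edgeR on read ends (adjusted p = 0.00374). On the scale of the score this site stayed above 0.95 in every library of the study.

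**Figure D2:**
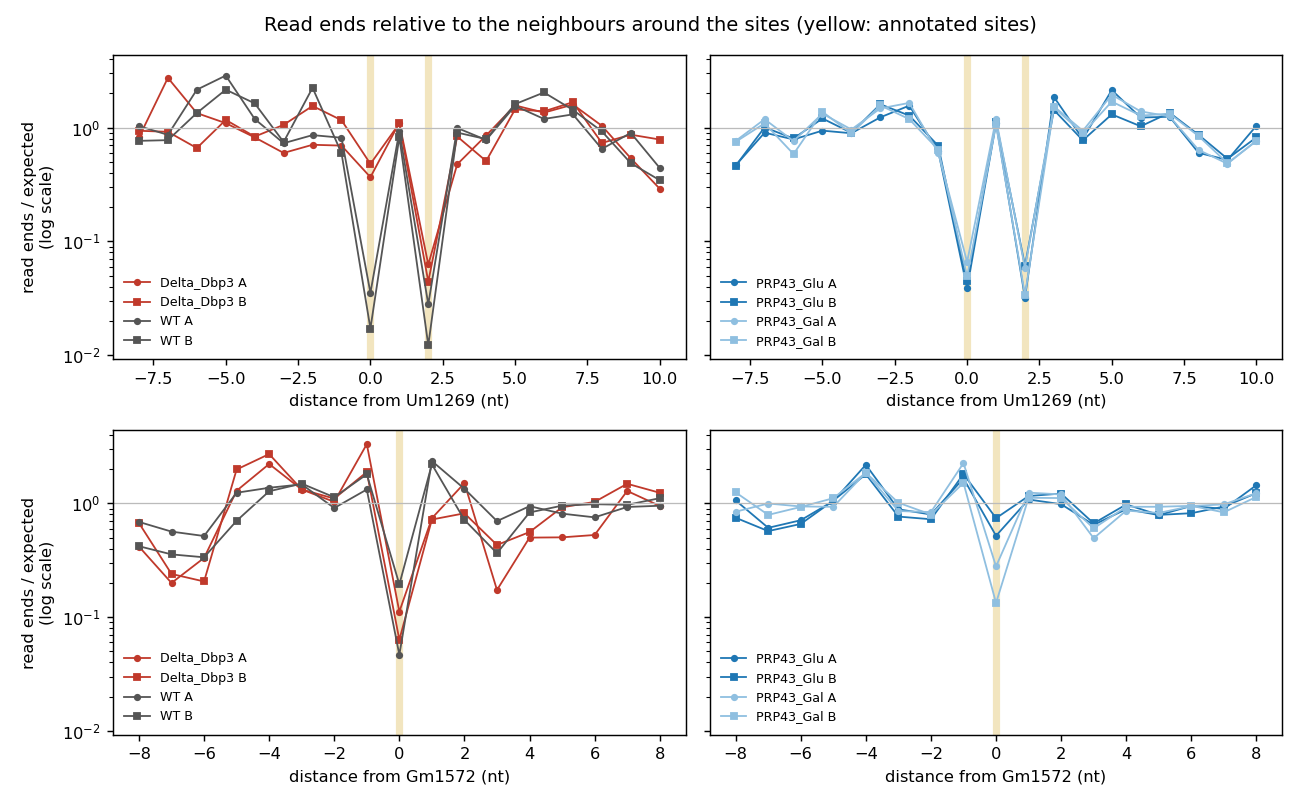
Read ends divided by expected read ends (log scale, vertical axis) against the distance in nucleotides from Um1269 (top) and Gm1572 (bottom), with 1 line per library: Delta_Dbp3 and WT on the left, PRP43_Glu and PRP43_Gal on the right. Yellow bands mark annotated sites; the dip at Um1269 was shallow in Delta_Dbp3 (36.7% and 48.0% of expected) and the dip at Gm1572 was shallow in PRP43_Glu (51.8% and 74.0%).

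Set directly against each other, the changes in both helicase strains differed at these 2 sites. The Dbp3 change (Delta_Dbp3 minus WT) minus the PRP43 change (PRP43_Glu minus PRP43_Gal) was -0.413 at Um1269 (SE 0.0521, limma's adjusted p = 0.00428) and 0.456 at Gm1572 (SE 0.134, adjusted p = 0.0419). Over the 55 sites 7.27% were called further down in the Dbp3 strain and 34.5% further down in the PRP43 strain. At Gm1271, Gm1428 and Cm1639 the intervals of this difference included 0. The Gm1572 value lies near the threshold, and it passed in 7 of 18 alternative settings, against 17 of 18 for Um1269.

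**Figure D3:**
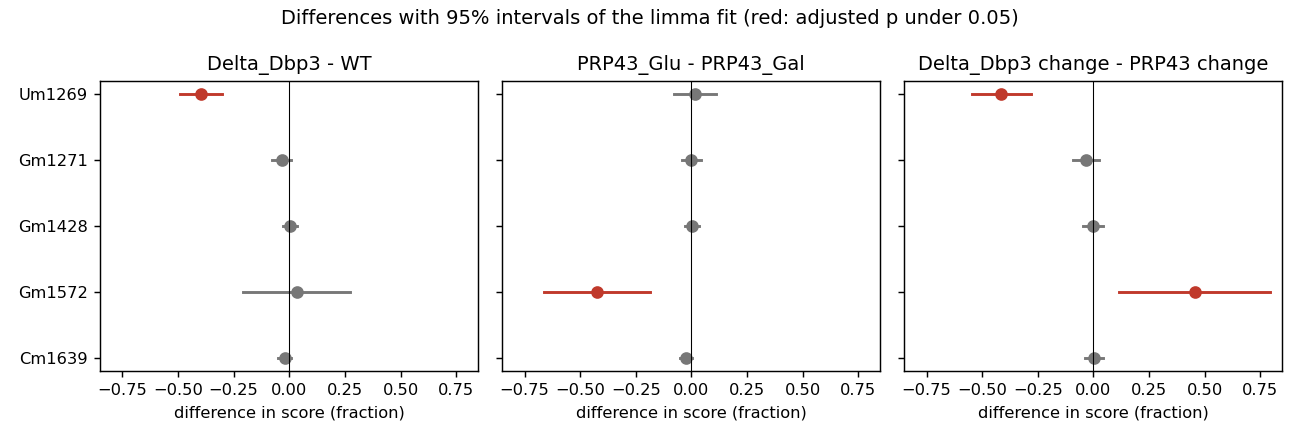
Differences in RiboMeth-seq score (fraction, horizontal axis) with 95% intervals of the limma fit at the 5 sites, for Delta_Dbp3 minus WT, PRP43_Glu minus PRP43_Gal, and the Dbp3 change minus the PRP43 change; red marks an adjusted p under 0.05. Um1269 stood out in the first panel (-0.397), Gm1572 in the second (-0.423), and both, with opposite signs, in the third (-0.413 and 0.456).

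The PRP43 strain was also set against WT, in a comparison that shares the WT libraries with the Dbp3 comparison. Here strain, barcode and the authors' set of reference RNAs change together and cannot be told apart. The medium may change with them, but it is not given for each library. Gm1572 scored 0.482 and 0.260 in PRP43_Glu, against 0.953 and 0.806 in WT, with a limma difference of -0.509 (SE 0.0949, adjusted p = 0.00574). It was the only 1 of the 5 sites called, where 69.1% of the 55 sites were called lower and 0% higher. All 5 sites lay below WT without overlap, as did 92.7% of the 55. Cm1639 came next, with a difference of -0.0298 and an adjusted p of 0.0545 in limma, and it passed in 3 of 19 alternatives, among them edgeR on read ends (adjusted p = 0.00096).

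For PRP43_Gal against WT, 0 of the 5 sites passed with limma, and 0 had an unadjusted p under 0.05, where 0% of the 55 sites were called lower or higher and 5 of 55 had an unadjusted p under 0.05. With edgeR on read ends 0 of the 5 passed as well, for which no share over all annotated sites is given here. Gm1572 scored 0.721 and 0.867 in PRP43_Gal, against 0.953 and 0.806 in WT, and the groups overlapped (difference -0.0856, 95% interval -0.325 to 0.154). The other 4 sites lay below WT without overlap, where 43.6% of the 55 sites did. Ordered by mean score, Gm1572 thus ran from PRP43_Glu (0.371) through PRP43_Gal (0.794) and WT (0.880) to Delta_Dbp3 (0.913), and neighbours in the last 3 places did not differ beyond their spread. Um1269 ran from Delta_Dbp3 (0.577) through PRP43_Gal (0.942) and PRP43_Glu (0.958) to WT (0.974), and limma called none of the differences tested among the last 3.

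Each fragment has a 5' end and a 3' end, which were counted separately in the deposited tables. Across the 3' domains 3' ends made up 50.2% to 50.9% of the read ends in each library, but at single sites the split was uneven. At Um1269, 3' ends were 83.8% and 61.3% of the read ends in Delta_Dbp3, against 48.1% and 19.2% in WT. From 5' ends alone Um1269 scored 0.871 and 0.721 in Delta_Dbp3, against 0.963 and 0.983 in WT, and the limma difference of -0.177 did not pass (adjusted p = 0.0626). From 3' ends alone it scored 0.432 and 0.120 in Delta_Dbp3, against 0.966 and 0.984 in WT, a difference of -0.699. Both kinds of end were lower in Delta_Dbp3 without overlap, and the size of the fall depended on which was read.

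At Gm1572, 3' ends were 73.2% and 85.4% of the read ends in PRP43_Glu, against 94.9% and 93.4% in PRP43_Gal. From 5' ends alone Gm1572 averaged 0.598 ± 0.0348 in PRP43_Glu and 0.956 ± 0.0176 in PRP43_Gal (SD, n = 2 each). That difference of -0.358 passed limma's threshold, with an adjusted p of 0.00014. From 3' ends alone it averaged 0.277 ± 0.174 in PRP43_Glu and 0.738 ± 0.128 in PRP43_Gal, a difference of -0.462 (adjusted p = 0.0327). Replicates were thus several times closer to each other with 5' ends, and the call at Gm1572 held with either. The wide spread of this site also in WT (0.953 and 0.806) came with 3' ends, where WT averaged 0.848 ± 0.138, against 0.974 ± 0.0131 from 5' ends.

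**Figure D4:**
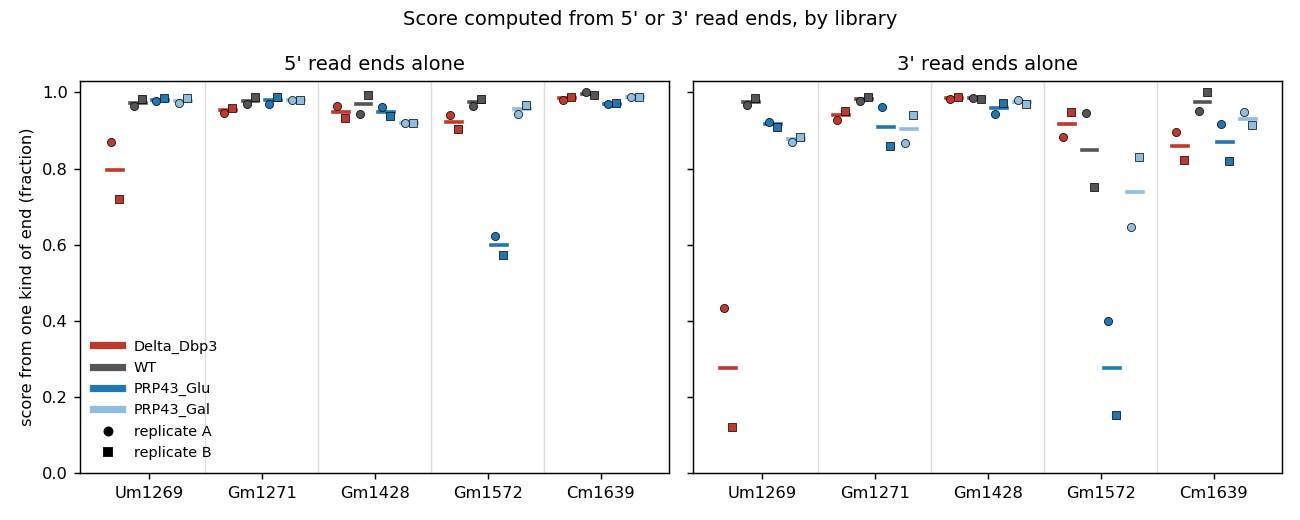
Score (fraction, vertical axis) at the 5 sites from 5' read ends alone (left) and from 3' read ends alone (right), with 1 point per library and a bar at each group mean. Um1269 in Delta_Dbp3 averaged 0.796 from 5' ends and 0.276 from 3' ends, and Gm1572 in PRP43_Glu averaged 0.598 and 0.277.

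How well the annotated sites stood out from the 655 unannotated nucleotides differed between libraries. Gm1428 and Cm1639 scored above every unannotated nucleotide of the 3' domains in all 8 libraries. Gm1271 did so in 7 libraries, and in Delta_Dbp3 replicate A 7 unannotated nucleotides scored at least as high. At Um1269, 68 and 88 unannotated nucleotides scored at least as high in Delta_Dbp3, against 0 in both WT libraries. At Gm1572, 40 and 158 did in PRP43_Glu, against 5 and 0 in PRP43_Gal, and 12 and 1 did in Delta_Dbp3, against 0 and 15 in WT. At their lowest, both sites were thus within the range of unannotated positions.

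This background was itself lower in the PRP43 strain. The mean score of the unannotated nucleotides was 0.255 and 0.213 in Delta_Dbp3, against 0.224 and 0.218 in WT. In the PRP43 strain it was 0.149 and 0.138 in PRP43_Glu, against 0.169 and 0.151 in PRP43_Gal. The highest unannotated score of a library was 0.964 and 0.940 in Delta_Dbp3, against 0.928 and 0.954 in WT, and it was 0.748 and 0.762 in PRP43_Glu, against 0.809 and 0.816 in PRP43_Gal. A score of at least 0.75 in both libraries of a group was reached by 10 unannotated nucleotides in Delta_Dbp3, against 9 in WT, and by 0 in PRP43_Glu, against 1 in PRP43_Gal.

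**Figure D5:**
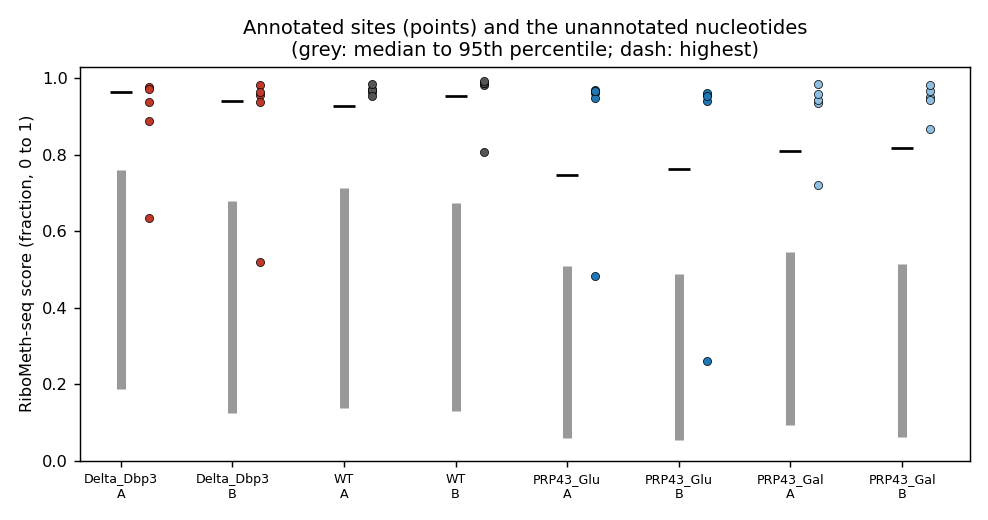
Scores (fraction, vertical axis) of the 5 annotated sites (points) beside the 655 unannotated nucleotides of the 3' domains (grey bar from the median to the 95th percentile, dash at the highest) in each library. The highest unannotated score lay between 0.748 and 0.816 in the PRP43 libraries and between 0.928 and 0.964 in the others.

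Of the 9 unannotated nucleotides high in WT, U1771, C1772, C1773 and G1774 follow each other near the 3' end, in the sequence shown here because C1773 is known to carry an acetyl group placed by Kre33.
18S 1761 to 1784, high-scoring nucleotides in capitals: uaacaagguuUCCGuaggugaacc
U1771 scored 0.912 and 0.635 in Delta_Dbp3, against 0.919 and 0.918 in WT, and it scored 0.197 and 0.336 in PRP43_Glu, against 0.633 and 0.541 in PRP43_Gal. C1773 scored 0.921 and 0.488 in Delta_Dbp3, against 0.824 and 0.877 in WT, and it scored 0 in both PRP43_Glu libraries, against 0.0128 and 0 in PRP43_Gal. At all 4 nucleotides of this run, values of at least 0.75 were found in both WT libraries and in Delta_Dbp3 replicate A, and in none of the PRP43 libraries or Delta_Dbp3 replicate B. G1786 scored 0.938 and 0.842 in Delta_Dbp3, against 0.895 and 0.907 in WT. It lies where 5' ends are 0 in every library, as they are from position 1785 on, so the read ends at those 16 last nucleotides are 3' ends alone. The last 6 of them lack a full set of neighbours, and their score is set to 0.

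The others were U1191, U1608, G1548 and C1158. U1191 is the hypermodified uridine of 18S, a pseudouridine with further groups on its base, known to lie by the P site.
18S 1181 to 1201, U1191 in capitals: uuaauuugacUcaacacgggg
It scored 0.770 and 0.790 in Delta_Dbp3, against 0.906 and 0.862 in WT, and 0.588 and 0.628 in PRP43_Glu, against 0.544 and 0.743 in PRP43_Gal. U1608 had the highest unannotated score in PRP43_Glu replicate A. It scored 0.961 and 0.940 in Delta_Dbp3, against 0.754 and 0.881 in WT, and 0.748 and 0.694 in PRP43_Glu, against 0.678 and 0.653 in PRP43_Gal. Only U1191, U1608 and G1786 of the 9 also reached 0.75 in both Delta_Dbp3 libraries.

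Among nucleotides with known base modifications, G1575, whose base is methylated by Bud23, lies 3 nucleotides downstream of Gm1572 and within its scoring window. Its score was 0.827 and 0.570 in Delta_Dbp3, against 0.303 and 0.636 in WT, and 0.354 and 0.334 in PRP43_Glu, against 0.507 and 0.397 in PRP43_Gal. Its 3' ends were 0.0398 and 0.0541 times the expected number in Delta_Dbp3, against 0.0889 and 0.0755 times in WT. In the PRP43 strain they were 0.248 and 0.460 times the expected number in PRP43_Glu, against 0.302 and 0.275 times in PRP43_Gal. Its 5' ends reached 0.425 and 0.846 times the expected number in Delta_Dbp3 and 1.30 and 0.803 times in WT, so depletion at G1575 was found in 3' ends in every library and was deepest in Delta_Dbp3 and WT.

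The adenosines A1781 and A1782 are dimethylated by Dim1 in the last helix of 18S. A1782 scored 0.849 and 0.606 in Delta_Dbp3, against 0.742 and 0.954 in WT, and 0.572 and 0.542 in PRP43_Glu, against 0.551 and 0.515 in PRP43_Gal. A1781 scored 0.476 and 0.705 in Delta_Dbp3, against 0 in both WT libraries, and 0.593 and 0.594 in PRP43_Glu, against 0.499 and 0.450 in PRP43_Gal. It held only 30 and 105 read ends in Delta_Dbp3, with 57 and 356 expected, against 406 and 179 in WT, with 347 and 160 expected. Its scoring window reaches past position 1785, from which 5' ends are 0 in every library. The WT libraries thus differed from the other 6 at A1781, by 0.591 for Delta_Dbp3 minus WT, which did not pass the edgeR test described next (adjusted p = 0.0916). The pseudouridines had no common level, from a mean in Delta_Dbp3 of 0.274 at U1290 to 0.780 at U1191.

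A scan asked whether any nucleotide, annotated or not, changed its read ends relative to its neighbours. It used edgeR's quasi-likelihood test over 5167 nucleotides of 18S and 25S, with the expected read ends as offset, and called a nucleotide where the adjusted p was under 0.05 and the score differed by 0.1 or more. Testing required 6 neighbours on each side within the rRNA and a mean of at least 50 read ends. Of the 655 unannotated nucleotides of the 3' domains 649 were tested. The rest, the last nucleotides of 18S, lack those neighbours. Of the annotated sites 4 were tested, all but Cm1639, which had too few read ends (2 to 40, with 253 to 1863 expected). The minimum applies to read ends at the nucleotide itself, which protection lowers. The shares of annotated sites thus cover only those that passed it. For Delta_Dbp3 against WT, 1 of these 4 sites was called, Um1269 (adjusted p = 0.01001). Among annotated sites elsewhere 9 of 46 were (19.6%), so 1 of 4 (25%) is near that share. Of the unannotated nucleotides 2 of 649 were called, A1573 and U1283. Over both rRNAs 0.406% of all nucleotides and 0.215% of unannotated ones were called, so 2 of 649 (0.308%) is near the background.

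A1573 is the neighbour of Gm1572 on its 3' side and U1283 lies downstream of Gm1271; each is in capitals below.
A1573 (18S 1563 to 1583): cucuucaacgAggaauuccua
U1283 (18S 1273 to 1293): gcauggccguUcuuaguuggu
A1573 had 2870 and 1612 read ends in Delta_Dbp3, with 3884 and 2238 expected, against 8789 and 4766 in WT, with 3735 and 2166 expected. Its score was 0.261 and 0.280 in Delta_Dbp3 and 0 in both WT libraries, where it held 2.35 and 2.20 times the expected read ends. The score difference was 0.270 with an edgeR adjusted p of 0.0182, and it was called in 9 of 15 alternatives. In PRP43_Glu it held 1.08 and 1.16 times the expected read ends, against 1.24 and 1.12 times in PRP43_Gal, so the WT libraries were the highest of all 8.

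U1283 scored 0 in both Delta_Dbp3 libraries, against 0.203 and 0.152 in WT, with 1936 and 6766 read ends in Delta_Dbp3 against 875 and 2866 expected. The difference of -0.178 had an edgeR adjusted p of 0.0496 and was called in 4 of 15 alternatives. In the PRP43 strain it scored 0.0827 and 0 in PRP43_Glu, against 0.215 and 0.176 in PRP43_Gal. Larger score differences that did not pass were found at G1715 (-0.670, adjusted p = 0.0838), A1781 (0.591), G1498 (-0.548, adjusted p = 0.0788), A1194 (-0.536, adjusted p = 0.0708) and the pseudouridine U1187 (0.530, adjusted p = 0.0916). At an unadjusted p under 0.05 in edgeR there were 110 of the 649, against 751 of the 4468 unannotated nucleotides elsewhere. DESeq2 called 27 of the 649, for which no count elsewhere is given here.

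For PRP43_Glu against PRP43_Gal the scan with edgeR called 0 of the 4 annotated sites of the 3' domains, against 6 of 46 (13%) elsewhere. It called 0 of the 649 unannotated nucleotides of the 3' domains. Over both rRNAs 0.116% of all nucleotides and 0% of unannotated ones were called. At an unadjusted p under 0.05 there were 1 of 4 and 7 of 649, against 30 of 46 and 100 of 4468 elsewhere. DESeq2 called 1 unannotated nucleotide of the 3' domains, and no count elsewhere is given here. Gm1572 was the 1 of 4, with an unadjusted p of 0.0264 in the scan and an adjusted p of 0.999. The largest score difference among unannotated nucleotides that did not pass was at C1215, which scored 0.0179 and 0.193 in PRP43_Glu, against 0.598 and 0.628 in PRP43_Gal (difference -0.508, adjusted p = 0.441).

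The 3' domains held 36.9% and 35.6% of the 18S read ends in Delta_Dbp3, against 29.7% and 24.2% in WT, and 41.1% and 40.0% in PRP43_Glu, against 35.3% and 40.3% in PRP43_Gal. The part of this coverage in the results was not tested. Each library carried a barcode, and 4 libraries shared 2 of the 6 barcodes, Delta_Dbp3 A with PRP43_Glu B and Delta_Dbp3 B with PRP43_Glu A. Within a shared barcode, Delta_Dbp3 minus PRP43_Glu was -0.322 and -0.441 at Um1269 and 0.629 and 0.455 at Gm1572. Libraries of the same barcode deviated from their group means together, with a Pearson correlation of 0.456 over 653 nucleotides of the 3' domains and 0.421 over all 5167, which share library, barcode and neighbours. Within each of the other comparisons barcode and group coincide and cannot be told apart.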

How the data were processed

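RiboMeth-seq was measured in 8 libraries, and groups were taken from the sample titles. Per the labels' protocols, whole cell RNA was cut by alkali, fragments were size-selected and linkers were joined by a tRNA ligase. Per the submitters' processing notes, cutadapt 2.0 and Bowtie2 2.3.4.1 were used, and the sources used here do not name the build or the mapping settings. The authors deposited, per the file headers, counts of 5' and 3' read ends per nucleotide and the score as a fraction. The score was recomputed from the deposited counts over 41568 values, with a largest difference of 5e-10, using neighbour weights from 1 to 0.5. The authors' group means at the 55 sites carry a barcode correction, which touched 6 of 220 means and 0 in the 3' domains. Another 16 deposited columns of per-sample values were not used.

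Site scores were fitted with limma 3.58.1 (R 4.3.3) in a single fit of 8 libraries without a block, with Benjamini-Hochberg adjustment over the 55 sites in each of 5 comparisons. Calls rest on 4 residual and 1.31 prior degrees of freedom. The scan used edgeR 4.0.16, with DESeq2 1.42.0 as an alternative, and permutation tests and tables used Python 3.11.15. The limma fit of the 55 sites and the edgeR scan were tested on simulated data, for Delta_Dbp3 minus WT. The members and lists were chosen with earlier results of these data known. Named items are the 5 sites, each unannotated nucleotide called by a scan (at most 10 a comparison), the 5 largest differences that did not pass in each of 2 main comparisons, at most 10 nucleotides high in WT, base-modified nucleotides known from the literature, and Um898. Text names only some of the last lists.

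Correlations of the deviations from the group means between same-letter replicates ran from -0.276 (PRP43_Gal with PRP43_Glu) to 0.327 (WT with PRP43_Glu) over the 55 sites. Over the 5167 scanned nucleotides they ran from -0.421 (Delta_Dbp3 with PRP43_Glu) to 0.136 (Delta_Dbp3 with PRP43_Gal). The value of -0.421 is the same-barcode correlation of 0.421 with its sign turned, because these 2 groups share barcodes across letters, and is not separate evidence. With mixed signs, and no statement in the labels that a letter marks a shared culture or day, letters were not used as pairs. No replicate pair held identical tables. Alternatives covered the scale, samples, block, neighbours, kind of end, barcode correction, test, moderation, depth and each library left out.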

Additional observations from a re-analysis of the deposited data

Results flagged for a closer look

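At 2 sites of the 3' domains the change in Delta_Dbp3 (against WT) and the change in PRP43_Glu (against PRP43_Gal) differed by limma's test of the difference itself. At Um1269 this difference was -0.413 (adjusted p = 0.00428), made of a change of -0.397 in the Dbp3 strain and 0.0160 in the PRP43 strain, and every alternative kept its sign. At Gm1572 it was 0.456 (adjusted p = 0.0419), made of 0.0328 in the Dbp3 strain and -0.423 in the PRP43 strain. This value lies near the threshold, and it kept its sign but passed in only 7 of 18 alternative settings. Groups of 2 libraries are too small for a test of single samples that stand apart.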

How the results depend on the processing

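Over the 5 comparisons and 5 sites, 415 values under alternative settings kept direction and side of the threshold, 12 newly passed, 15 no longer passed and 28 changed sign, all of them at small differences that had not passed. In the Dbp3 comparison 1 site passed, against 3 on log2 odds, 2 with trend and robust moderation, 2 with edgeR on read ends and 0 from 5' ends alone. For PRP43_Glu minus PRP43_Gal 1 passed, against 2 on log2 odds and 2 with trend and robust moderation. For PRP43_Glu minus WT 1 passed, against 2 on log2 odds, 3 with trend and robust moderation and 3 with edgeR. For the difference of both changes 2 passed, against 1 on log2 odds, with the replicate block, from 5' ends, from 3' ends and with edgeR. The causes were not tested. Shares of all annotated sites that passed under the alternative settings are not given here. The counts of sites under those settings, here and below, are thus not set against a background.

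With the replicate block, Um1269 kept its call in Delta_Dbp3 (adjusted p = 0.00316) and Gm1572 in PRP43_Glu against PRP43_Gal (adjusted p = 0.0202), while the difference of both changes at Gm1572 was lost (adjusted p = 0.0689), and 0 unannotated nucleotides were called in the Dbp3 scan. With crossed letters as the block, chosen after seeing the data, 1 of the 5 sites was called for PRP43_Glu minus PRP43_Gal and 0 for PRP43_Gal minus WT. The 4 alternatives for the pair Um1269 and Gm1271 were also chosen after seeing the data.

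Leaving out each library in turn left 1 site called in the Dbp3 comparison, 0 to 1 for PRP43_Glu minus PRP43_Gal (0 without PRP43_Gal replicate B), 1 for PRP43_Glu minus WT and 1 to 2 for the difference of both changes. The Dbp3 change ranged from -0.454 to -0.340 at Um1269, from -0.0408 to 0.106 at Gm1572 and from -0.0067 to 0.0108 at Gm1428. The change in PRP43_Glu against PRP43_Gal ranged from -0.534 to -0.312 at Gm1572, from -0.0149 to 0.0141 at Gm1271 and from -0.0046 to 0.0114 at Gm1428. The difference of both changes ranged from -0.470 to -0.356 at Um1269, from 0.345 to 0.567 at Gm1572, from -0.0101 to 0.0074 at Gm1428 and from -0.0040 to 0.0088 at Cm1639.

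Other sign changes were as follows. The Dbp3 change at Gm1428 was -0.0018 with 2 neighbours and -0.0208 from 5' ends, and at Gm1572 it was -0.0514 from 5' ends. For PRP43_Glu minus PRP43_Gal, Gm1271 was at 0.0066 on log2 odds, 0.000724 from 5' ends and 0.0070 from 3' ends, and Gm1428 at -0.0168 from 3' ends. Against WT from 5' ends, Um1269 was at 0.0053 and Gm1271 at 0.000892 in PRP43_Gal, and at 0.0079 and 0.0016 in PRP43_Glu. The difference of both changes at Cm1639 was -0.136 on log2 odds and -0.0530 from 3' ends, and at Gm1428 0.0174 from 3' ends.

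The Dbp3 scan called 2 unannotated nucleotides, against 1 with at least 500 read ends, 1 with limma on log2 ratios and 27 with DESeq2. The number also depended on which library was left out. Shares over both rRNAs under these settings are not given here, so these numbers are not set against a background. Of the annotated sites, 1 was called, against 0 with at least 500 read ends and 0 to 1 with a library left out (0 without WT replicate B). The scan of PRP43_Glu against PRP43_Gal called 0 unannotated nucleotides, against 1 with DESeq2, again without a share over both rRNAs. High-scoring unannotated nucleotides numbered 10 in Delta_Dbp3, against 2 with 2 neighbours, 17 from 5' ends, 22 from 3' ends and 55 at a minimum score of 0.5. The same settings gave 5, 28, 16 and 60 in WT, against 9. In PRP43_Glu 5' ends gave 12, 3' ends 1 and the lower minimum 17, against 0, and in PRP43_Gal 2 neighbours gave 0, 5' ends 16 and the lower minimum 27, against 1. Low counts limit Cm1639 most, with 2 to 40 read ends.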
